A study of Mus musculus with 30 samples.

Results

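Pre-pro B cells, the earliest bone marrow fraction that carries the B lineage marker B220, were compared between mice with 2 mutant copies and mice with 1 mutant copy of Ikzf3 G158R. The 6 libraries were chosen by their labels: 3 homozygous (genotype Ikzf3m/m, called homo here) and 3 heterozygous (Ikzf3+/m, called het), out of 30 samples in the series. All came from C57BL/6 bone marrow, and no drug, culture or other allele is given for the sorted cells. The cells were enriched on B220 beads and sorted as B220+AA4.1+IgM-CD43+CD24-, and polyadenylated RNA was sequenced. Of the other samples, 3 wild-type (Ikzf3+/+, WT) pre-pro B libraries and 9 pre-B libraries (B220+AA4.1+IgM-CD43-CD24+; 3 of each genotype) serve here as references. Ages are not given in the labels, and nothing in them says that replicates came from separate mice, so a p-value measures only the spread between these libraries, which may be technical.

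Ikzf3 encodes Aiolos, a zinc finger transcription factor of the Ikaros family. Its members bind DNA through one set of zinc fingers and pair with each other through another, so that a changed Aiolos protein can sit in the same complex as Ikaros (Ikzf1). In the B lineage, Aiolos levels rise as cells move from the earliest progenitors towards the pre-B stage, where Ikaros and Aiolos act with the pre-B receptor in ending proliferation. With heterozygous cells as the reference, the comparison asks what changes when the remaining normal copy is replaced by a further mutant copy. The loss of the normal copy and the gain of a mutant copy cannot be told apart.

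The data show 2 genes that passed the test and a larger number of small differences that did not. Jchain, which encodes the joining chain that links IgA and IgM monomers into polymers and is known from plasma cells and plasmacytoid dendritic cells, fell 40.0-fold in homo cells. Reln, which encodes reelin, a secreted glycoprotein known from neuronal positioning, fell 6.10-fold. Both had het levels that overlapped the WT levels. These 2 were 0.0164% of the 12188 genes tested at an adjusted p of 0.05 (edgeR quasi-likelihood F test, Benjamini-Hochberg over all genes tested). No gene passed in the higher direction. At an unadjusted p under 0.05, 1470 genes stood apart, 12.1% of those tested, 818 higher (6.71%) and 652 lower (5.35%) in homo cells.

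The promoters of the 2 called genes are shown because Ikaros family proteins recognise sequences with the core GGGAA. Each line holds the 250 bases before the annotated start, written in the direction of the gene, from RefSeq on GRCm38.p6. Jchain (gene ID 16069) lies on the minus strand at chr5:88519809-88527897, and its window is chr5:88527898-88528147. Reln (gene ID 19699) lies on the minus strand at chr5:21884454-22344705, and its window is chr5:22344706-22344955. Capitals mark GGGAA on the gene's strand or TTCCC, the same motif on the other strand.
Jchain promoter: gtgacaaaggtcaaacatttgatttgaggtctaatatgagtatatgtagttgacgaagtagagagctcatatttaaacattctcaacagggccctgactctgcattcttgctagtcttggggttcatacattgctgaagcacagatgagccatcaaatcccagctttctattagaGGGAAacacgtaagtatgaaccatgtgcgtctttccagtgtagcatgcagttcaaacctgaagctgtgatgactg
Reln promoter: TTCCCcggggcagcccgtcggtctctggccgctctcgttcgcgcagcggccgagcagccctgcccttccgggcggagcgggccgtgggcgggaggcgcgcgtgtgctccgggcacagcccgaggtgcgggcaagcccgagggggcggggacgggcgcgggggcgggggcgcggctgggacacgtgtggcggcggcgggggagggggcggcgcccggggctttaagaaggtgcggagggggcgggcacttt
Both strands of each window were searched for GGGAA. The Jchain window held 1 match, on the gene's strand, whose first base lay 75 bases before the start, and its GC content was 42.0%. The Reln window held 1 match, on the other strand and at the far end of the window, and its GC content was 80.0%. The motif is common: 56.2% of 32851 promoters of this length held it on either strand, and 57.8% of the 11917 that belong to tested genes. A match is a description of letters and not a binding site.

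Gene counts per pre-pro B library ranged from 4683715 to 9048055 in het and homo cells, with het replicate 1 the shallowest, and from 5443344 to 6492192 in WT cells. Counts on genes of chromosome Y were present in 3 of the 6 libraries (het replicate 2, homo replicates 1 and 3), and the other 3 and all WT libraries had Xist at 12460 counts or more and at most 5 Y-linked counts. Het replicate 2 stood nearer to the homo libraries than to its own group. Its log2 levels correlated at 0.992, 0.988 and 0.990 with homo replicates 1, 2 and 3, and at 0.983 and 0.987 with het replicates 1 and 3, across genes. On the first principal component, which held 54.0% of the variance over the 9 pre-pro B libraries, het replicate 2 lay at 18.2, between the homo values of 14.95 to 26.6, and the other het libraries lay at -7.88 and 0.46. Without het replicate 2, 223 of 12163 genes (1.83%) passed, 116 higher (0.954%) and 107 lower (0.88%). The called genes and the gene lists are therefore given with and without that library where a call or a median moved. It was singled out for standing near the homo libraries, so leaving it out tends to widen the differences by choice. The counts of passing genes without it are thus descriptions and not support. Counts of list members passing in that fit are to be read beside its shares of 0.954% higher and 0.88% lower. The remaining het libraries also had at most 5 Y-linked counts, while homo replicates 1 and 3 had Y-linked counts.

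The label of the cells was checked against B lineage genes. Ptprc, the gene of B220, was measured at 663 to 939 CPM (library-scaled counts, with TMM factors within the stage) in the 9 pre-pro B libraries, and Spn, the gene of CD43, at 367 to 483 CPM. Cd93, the gene of AA4.1, was measured at 124 to 217 CPM. Pax5, a later B lineage gene, was low beside the pre-B libraries, which were scaled separately, at 8.61 to 19.7 CPM against 174 to 212 CPM. Siglech, a defining marker of plasmacytoid dendritic cells, which also carry B220, was at 472 to 823 CPM in the pre-pro B libraries and at 0.178 to 1.22 CPM in the pre-B libraries. The sorted fraction therefore held RNA of plasmacytoid dendritic cell genes beside that of B lineage genes. None of these B lineage genes passed the homo against het test. In sorted populations such as these, fewer cells of a type and less RNA per cell cannot be told apart.

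Jchain was measured at 189, 129 and 131 CPM in het replicates 1, 2 and 3 and at 3.24, 4.31 and 3.51 CPM in homo replicates 1, 2 and 3. The WT libraries held 92.6, 82.6 and 153 CPM. Every homo library was thus far below every het and WT library, and the het and WT ranges overlapped. The counts behind these values were 856, 1156 and 1107 in het cells and 30, 38 and 32 in homo cells. The log2 fold change of homo against het was -5.32 with a standard error (SE) of 0.37 (n = 3 and 3; edgeR quasi-likelihood F test, adjusted p = 0.0163), and without het replicate 2 it was -5.41 (edgeR, adjusted p = 0.00972). Homo against WT gave -4.89 (edgeR, adjusted p = 0.0011), and het against WT gave 0.43 (adjusted p = 0.38). Both of these contrasts share libraries with homo against het, so they are not separate evidence.

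The Jchain call rested on each of 3 libraries. With the first het library left out it stood at -5.13 (edgeR, adjusted p = 0.0815). With homo replicate 2 left out it stood at -5.45 (adjusted p = 0.183), and with homo replicate 3 left out at -5.29 (adjusted p = 0.0914). Between het libraries, Jchain counts did not scale with depth: het replicates 2 and 3 had 1.87 and 1.79 times the gene counts of het replicate 1 but 1.35 and 1.29 times its Jchain counts. Actb, the beta-actin gene, showed 1.13 and 1.11 times, so both transcripts took a larger share of the shallow library.

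**Figure D1:**
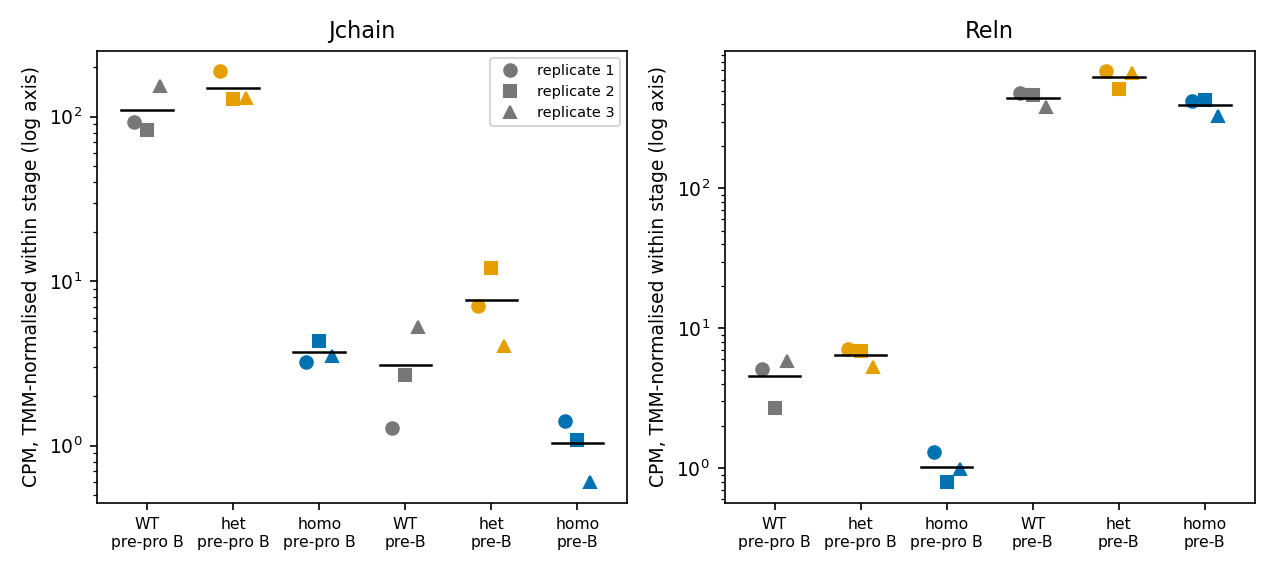
Jchain (left) and Reln (right) levels in CPM on log axes, TMM-scaled within each stage, in the 3 WT, 3 het and 3 homo libraries of each stage; symbols are replicates and lines are group means. Jchain is at 3.24 to 4.31 CPM in homo and 129 to 189 CPM in het pre-pro B cells, and Reln is at 0.794 to 1.30 against 5.31 to 7.06 CPM.

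Reln was measured at 7.06, 6.90 and 5.31 CPM in het replicates 1, 2 and 3 and at 1.30, 0.794 and 0.986 CPM in homo replicates 1, 2 and 3. The WT libraries held 5.13, 2.7 and 5.80 CPM, again overlapping het and lying above every homo library. Counts were low, at 32, 62 and 45 in het cells and 12, 7 and 9 in homo cells. The log2 fold change was -2.61 (SE 0.32, n = 3 and 3; edgeR, adjusted p = 0.0186), and -2.53 without het replicate 2 (edgeR, adjusted p = 0.00934). Homo against WT gave -2.13 (edgeR, adjusted p = 0.0031) and het against WT 0.48 (adjusted p = 0.34). The call was lost with the first het library left out (-2.55; edgeR, adjusted p = 0.0815), with homo replicate 2 left out (-2.46, adjusted p = 0.215) and with homo replicate 3 left out (-2.58, adjusted p = 0.0914).

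Plasmacytoid dendritic cell genes were read beside Jchain, since both are known from that cell type. The 20 listed genes of that cell type had a median log2 fold change of -0.25, and 19 were negative (50.7% of all tested genes were positive). Of the 20, 4 lay lower with no overlap between homo and het (7.67% of all tested genes did). None passed the test with all libraries. With het replicate 2 left out the median was -0.36 and 5 of the 20 passed, all lower (0.88% of tested genes passed lower in that fit). Their summed level was 10260, 7011 and 7548 CPM in het replicates 1, 2 and 3 and 7005, 6998 and 6789 CPM in homo replicates 1, 2 and 3. Het replicate 1 was the high library there, and without it the median was -0.06 and the log2 fold change of Jchain -5.13. With het replicate 1 likewise set aside, Siglech was at 484 and 512 CPM in het replicates 2 and 3 and at 472 to 489 CPM in homo cells. In pre-B cells, 3 of the 15 tested genes of the list passed, all lower, where 1.09% of tested genes passed lower. The part of these cells in the Jchain difference was not tested.

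Genes that work with Jchain in antibody secretion, or that are known to regulate it, were read from a list of 20, of which 18 were tested. None passed the test, 7 lay lower in homo cells with no overlap and none higher (over all tested genes, 7.67% lay lower and 9.55% higher with no overlap), and the median log2 fold change was -0.21 against 0.00 over all tested genes. The largest difference was that of Tnfrsf17, the BAFF and APRIL receptor BCMA of plasma cells, at 2.21, 1.78 and 2.71 CPM in het and 0.108, 0.567 and 0.438 CPM in homo cells (log2 -2.55, SE 0.59, n = 3 and 3; edgeR, adjusted p = 0.17). Xbp1, a driver of the secretory programme, was at 309, 225 and 242 CPM in het and 213 to 218 CPM in homo cells (log2 -0.25). Prdm1, which encodes Blimp-1, overlapped between the groups at 4.34 to 5.43 and 2.7 to 4.82 CPM. Pou2af1 and Irf4, both known regulators of plasma cell genes, also overlapped, with log2 fold changes of 0.02 and -0.11. All 7 lower genes differed by less than Jchain, including Tnfrsf17, which rested on few counts.

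The reelin pathway gave no called gene among 12 tested of 16 listed. Lrp8, which encodes the reelin receptor ApoER2, was abundant, at 864, 656 and 710 CPM in het and 674, 653 and 572 CPM in homo cells, and the groups overlapped (log2 -0.23; edgeR, adjusted p = 0.399). Vldlr, the other reelin receptor, stood below the filter on low counts, at 0.221 to 0.826 CPM in het and 0.794 to 0.986 CPM in homo cells. Dab1, the intracellular adaptor of both receptors, had 0 counts in every het and homo library. Fyn, a kinase acting on that adaptor, overlapped between groups (log2 -0.23). The median over the 12 was -0.04.

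**Figure D2:**
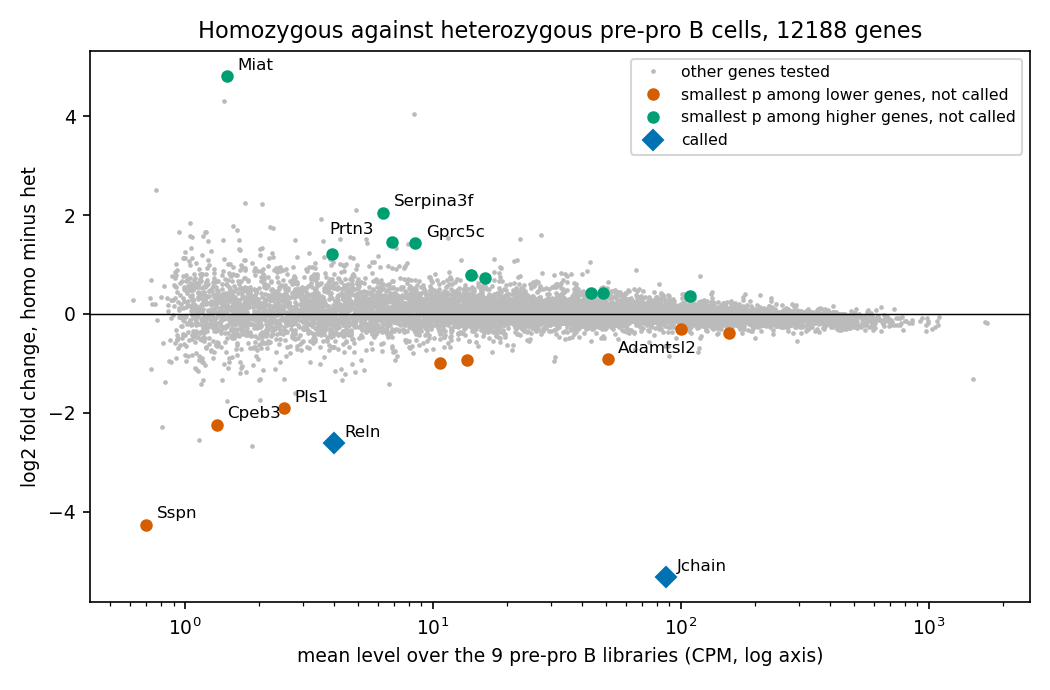
Log2 fold change of homo against het pre-pro B cells against the mean level over the 9 pre-pro B libraries (CPM, log axis) for the 12188 tested genes. Jchain (-5.32) and Reln (-2.61) are the 2 called genes; the other coloured points are the remaining genes with the smallest p in each direction whose homo and het levels do not overlap, of which Sspn (-4.25) and Miat (4.81) have the widest differences.

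Beyond the called pair, the 8 further lower genes and the 10 higher genes with the smallest p and no overlap between homo and het were read as values. Their choice fixed the direction, the lack of overlap and the small p, and 17.2% of all tested genes had no overlap. Their adjusted p ranged from 0.0535 to 0.0999 for the lower 8 and from 0.0675 to 0.0999 for the higher 10 (edgeR). Without het replicate 2, all 10 higher genes passed and all 9 of the lower genes that stayed above the count filter passed, Jchain and Reln among them. DESeq2 called all 20, within 48 genes called in all (0.394%), 31 higher (0.254%) and 17 lower (0.139%). Both sets of calls reuse the libraries that gave the small p, so they are not separate evidence.

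Among the lower genes, Pls1, the actin-bundling plastin 1, was at 3.75, 4.01 and 4.25 CPM in het and 1.08, 1.25 and 0.877 CPM in homo cells (log2 -1.90, SE 0.27; edgeR, adjusted p = 0.0535). Its het levels were above all WT levels (1.86 to 2.98 CPM), and its homo levels below them. Cpeb3, which binds cytoplasmic polyadenylation elements, was at 3.09, 2.34 and 2.71 CPM in het and 0.324, 0.567 and 0.767 CPM in homo cells, and the WT libraries, at 0.57 to 1.10 CPM, overlapped homo and not het. Sspn, which encodes sarcospan of the dystrophin complex, had 11, 16 and 10 counts in het and 1, 0 and 1 in homo cells, so the pooled ratio of het to homo was 22.9 with a 95% counting interval of 5.90 to 196. For Cpeb3 and Sspn the het libraries were thus the high group and WT stood with homo.

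In 4 other lower genes the 3 genotypes formed a staircase, with het below WT and homo below het. Adamtsl2, a secreted protein of the extracellular matrix, was at 65.2, 88.0 and 84.2 CPM in WT, 49.0, 43.3 and 51.3 CPM in het and 23.5, 23.2 and 29.3 CPM in homo cells. It was the one gene among these 20 that passed in het against WT (log2 -0.73; edgeR, adjusted p = 0.034, where 0.558% of tested genes passed), and homo against het was -0.92 (adjusted p = 0.0535). Gapt, a membrane adaptor that binds Grb2 in B cells, was at 175 to 193 CPM in WT, 156 to 166 CPM in het and 117 to 134 CPM in homo cells. Pkd2, the polycystin 2 cation channel, was at 17.3 to 23.4, 11.5 to 16.3 and 7.13 to 7.45 CPM. Cd72, an inhibitory coreceptor of B cells, was at 108.9 to 111.6, 100.1 to 108.8 and 80.2 to 88.5 CPM, a small difference with little spread. Slc35d3, a solute carrier, was at 12.1 to 16.4 CPM in het and 6.37 to 7.72 CPM in homo cells, with WT overlapping het.

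Among the higher genes, Miat, a long noncoding RNA, was almost absent from het cells, with 0, 3 and 0 counts, and had 18, 38 and 60 counts in homo cells. The pooled ratio of homo to het was 31.3, with a 95% counting interval of 10.4 to 154. Serpina3f, a serine protease inhibitor from a cluster of near-identical genes whose reads the counting may have split, was at 2.87, 2.89 and 3.42 CPM in het and 8.21, 10.4 and 19.8 CPM in homo cells (log2 2.05, SE 0.33; edgeR, adjusted p = 0.0675). For both genes WT overlapped het.

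A rising staircase of non-overlapping levels from WT through het to homo was seen in 4 of the 10. Fam135a was at 8.75 to 10.8, 13.7 to 16.6 and 23.9 to 25.4 CPM. Gprc5c, an orphan G protein-coupled receptor, was at 3.04 to 3.77, 3.97 to 8.68 and 14.0 to 18.0 CPM. Ehd3, an endocytic recycling protein, was at 7.26 to 8.56, 11.1 to 15.1 and 20.8 to 23.6 CPM. Prtn3, the neutrophil granule protease proteinase 3, was at 1.33 to 2.98, 3.09 to 7.12 and 11.7 to 15.8 CPM, with het replicate 2 the highest het library for both Gprc5c and Prtn3. The remaining 4, the zinc transporter gene Slc30a4, the ribosome biogenesis gene Rrp12, and I730030J21Rik and A830010M20Rik, had WT overlapping het and log2 fold changes of 0.36 to 1.2. Homo against WT passed for all 10 higher and for 8 of the 10 lower genes, where 22.4% of tested genes passed. The genes were chosen for homo levels apart from het, and the same homo libraries serve this contrast. These counts are therefore not separate evidence and are not to be read against that share. Every homo library was also deeper than every WT library.

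**Figure D3:**
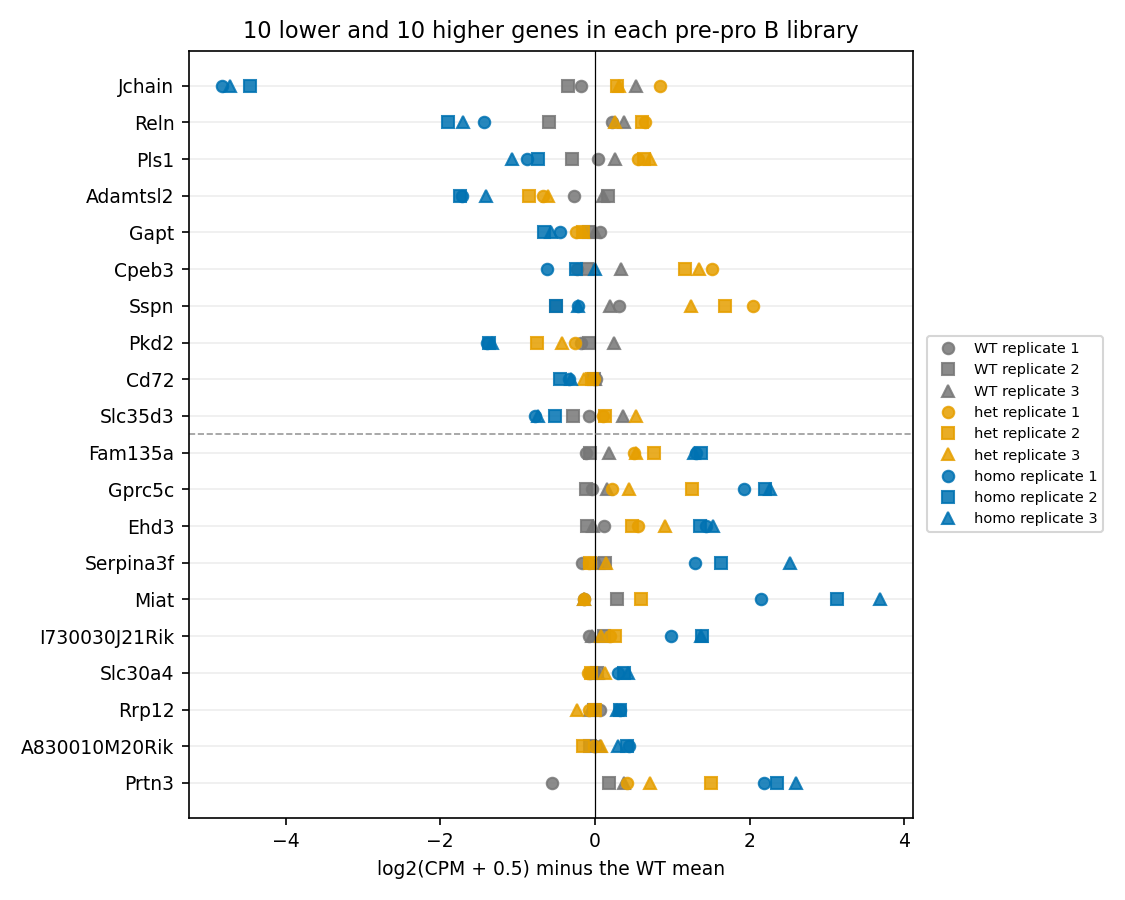
The 10 lower genes (above the dashed line) and 10 higher genes (below it) in each of the 9 pre-pro B libraries, as log2(CPM + 0.5) minus the mean of the WT libraries; colours are genotypes and symbols replicates. Het lies between WT and homo for genes such as Adamtsl2 and Fam135a, with WT for Jchain and Miat, and apart from both for Sspn and Cpeb3.

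The mutated gene itself was read next. The G158R change leaves the transcript in place, so the Ikzf3 count does not check the genotype labels. Ikzf3 was at 22.1, 24.5 and 25.1 CPM in het and 15.9, 14.98 and 18.1 CPM in homo cells, and the WT libraries, at 13.7, 15.5 and 18.5 CPM, overlapped homo. The log2 fold change was -0.56 (SE 0.12, n = 3 and 3; edgeR, adjusted p = 0.154), so it did not pass. Ikzf1 was at 568 to 689 CPM in het and 546 to 570 CPM in homo cells (log2 -0.13; edgeR, adjusted p = 0.532).

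Other B lineage groups were described in the same way. Of 20 B lineage transcription factors, 3 lay lower and none higher with no overlap (7.67% and 9.55% of all tested genes), Ikzf3 among them, and the median was -0.05. Ebf1, the factor that starts the B lineage programme with Tcf3, was at 51.9, 45.9 and 24.8 CPM in het and 53.9, 46.2 and 73.0 CPM in homo cells, and Pax5, which commits cells to the lineage, overlapped as well (log2 0.42). Of 20 genes of the pre-B receptor and its signalling, 5 lay lower and none higher with no overlap (against the same shares), Cd72 and the phospholipase gene Plcg2 (log2 -0.18) among them, and the median was -0.01. None of either list passed the test with all libraries, and 1 gene of the pre-B receptor list passed, lower, without het replicate 2.

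Myeloid genes stood higher in homo cells without passing. Of 14 tested myeloid genes, 7 lay higher and none lower with no overlap (9.55% of all tested genes lay higher), and the median log2 fold change was 1.13, with a range of 0.79 to 1.44 over the same 14 genes on leaving out each library in turn. Ctsg, which encodes cathepsin G of neutrophil granules, was at 1.99, 3.45 and 0.944 CPM in het and 5.72, 9.19 and 9.97 CPM in homo cells (log2 1.93, SE 0.36; edgeR, adjusted p = 0.0999). Elane, the neutrophil elastase gene, was at 0.662, 1.89 and 0.354 CPM in het and 5.29, 4.20 and 5.15 CPM in homo cells (log2 2.22, SE 0.45; edgeR, adjusted p = 0.12). Mpo, the myeloperoxidase gene, was at 9.71, 32.5 and 12.5 CPM in het and 50.3, 53.8 and 69.4 CPM in homo cells, and het replicate 2 was the high het library. Without het replicate 2, 5 of the list passed, all higher (0.954% of tested genes passed higher in that fit). The median over the members above the count filter in that fit was 1.70. The summed level of the list was 329 to 401 CPM in het and 429 to 511 CPM in homo cells. Ly6g, Cebpe, Ms4a3, S100a8 and Camp stayed below the count filter.

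Genes of stem and multipotent progenitors showed a split. Of 13 tested, 6 lay higher and none lower with no overlap (9.55% and 7.67% of all tested genes), and the median was 0.02. Cd34, a sialomucin of progenitors, was at 5.52, 10.0 and 6.84 CPM in het and 15.8, 26.7 and 24.9 CPM in homo cells (log2 1.54, SE 0.27; edgeR, adjusted p = 0.0999). Kit, the stem cell factor receptor, was at 38.8, 56.2 and 41.7 CPM in het and 65.8, 68.9 and 82.4 CPM in homo cells (log2 0.65; adjusted p = 0.154). Hoxa9, a homeobox factor of early progenitors, was at 35.5 to 39.5 CPM in het and 46.6 to 52.9 CPM in homo cells (log2 0.40; adjusted p = 0.118). In the fit without het replicate 2, 3 of the list passed, all higher (0.954% of tested genes passed higher in that fit).

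Of 17 natural killer and innate lymphoid genes, none passed in homo against het with all libraries, and 6 passed in het against WT, all higher, where 0.435% of tested genes passed higher. Gzmb, a granzyme gene, had 0, 0.338 and 0.627 CPM in WT, 9.93, 23.3 and 17.3 CPM in het and 35.9, 53.5 and 61.1 CPM in homo cells. Homo against het was 1.51 (SE 0.29, n = 3 and 3; edgeR, adjusted p = 0.156) and het against WT passed at an adjusted p of 0.025 (edgeR). Gzma, another granzyme gene, followed the same order, at 21.4 to 35.8 CPM in het and 39.4 to 58.7 CPM in homo cells (log2 0.82). Ncr1, which encodes the receptor NKp46 and defines these cells, overlapped between het and homo, at 8.17 to 20.1 and 11.02 to 23.3 CPM, against 0.844 to 1.26 CPM in WT. Over the 17 genes, homo lay above het with no overlap in 3 and below in none (9.55% and 7.67% of all tested genes), the median was 0.57 and the summed level was 261 to 415 CPM in het, 349 to 586 CPM in homo and 143.3 to 157.8 CPM in WT cells. The median was 0.70 without het replicate 2, and 1 gene passed, higher (0.954% of tested genes passed higher in that fit). The part of these cells in the other differences was not tested.

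**Figure D4:**
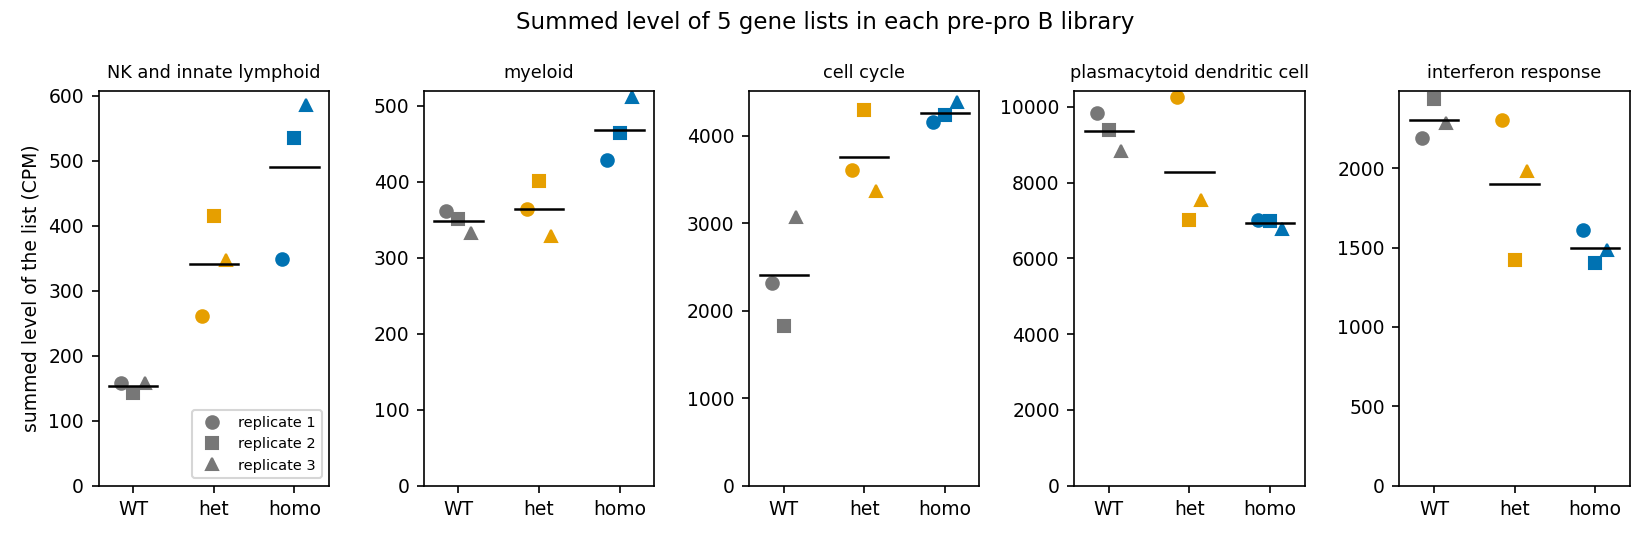
Summed level in CPM of 5 gene lists in the 9 pre-pro B libraries by genotype; symbols are replicates and lines group means. For myeloid genes the homo libraries (429 to 511 CPM) stand above the het libraries (329 to 401 CPM), for natural killer genes het and homo overlap above WT, and for interferon response genes het replicate 2 stands with the homo libraries.

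No cell cycle gene passed. Of 30 tested, 28 had a positive log2 fold change (50.7% of all tested genes did), 6 lay higher with no overlap (9.55%), and the median was 0.20, or 0.38 without het replicate 2. Ccnb1, the mitotic cyclin B1 gene, was at 14.6, 19.4 and 13.6 CPM in het and 21.9, 24.3 and 22.6 CPM in homo cells (log2 0.52). The summed level was 3603, 4296 and 3362 CPM in het and 4150, 4230 and 4387 CPM in homo cells, and het replicate 2 lay inside the homo range. Homo against WT passed for 27 of the 30, all higher, where 12% of tested genes passed higher; whether the contrasts differ was not tested.

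Interferon response genes had a median of -0.49 over 20 tested, and 3 stood lower and 1 higher at an unadjusted p under 0.05 (5.35% and 6.71% of all tested genes), none passing with all libraries. Usp18, an inhibitor of interferon receptor signalling, was at 103, 57.2 and 103 CPM in het and 68.7, 44.0 and 53.5 CPM in homo cells (log2 -0.65; edgeR, adjusted p = 0.387). Gbp2, a guanylate-binding protein, stood higher, at 5.19 to 6.01 CPM in het and 8.21 to 15.1 CPM in homo cells. The list followed 1 library: het replicate 2 had a summed level of 1421 CPM, within the homo range of 1401 to 1612 CPM, and the other het libraries had 2304 and 1983 CPM. Without het replicate 2 the median was -0.88 and 6 genes passed, all lower (0.88% of tested genes passed lower in that fit). Without het replicate 1 the median was -0.25.

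Markers of the other cell types that the gate could hold gave no called gene with all libraries. Of 14 tested T lineage genes, Cd8a lay lower with no overlap, at 119 to 137 CPM in het and 83.9 to 110 CPM in homo cells (log2 -0.45), and the median was -0.06. That median was 0.22 without het replicate 2, and 1 T lineage gene passed, lower. Of the erythroid and megakaryocyte list, 3 of 13 were tested, and Hba-a1, Hbb-bs and Hbb-bt had 0 counts in every pre-pro B library. Of the stromal and endothelial list, 5 of 12 were tested, and 1 passed, higher, without het replicate 2. The 12 housekeeping genes had a median of -0.15, with het replicate 1 the high library for Actb (515 CPM against 295 and 306 CPM in het replicates 2 and 3 and 282 to 296 CPM in homo cells).

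**Figure D5:**
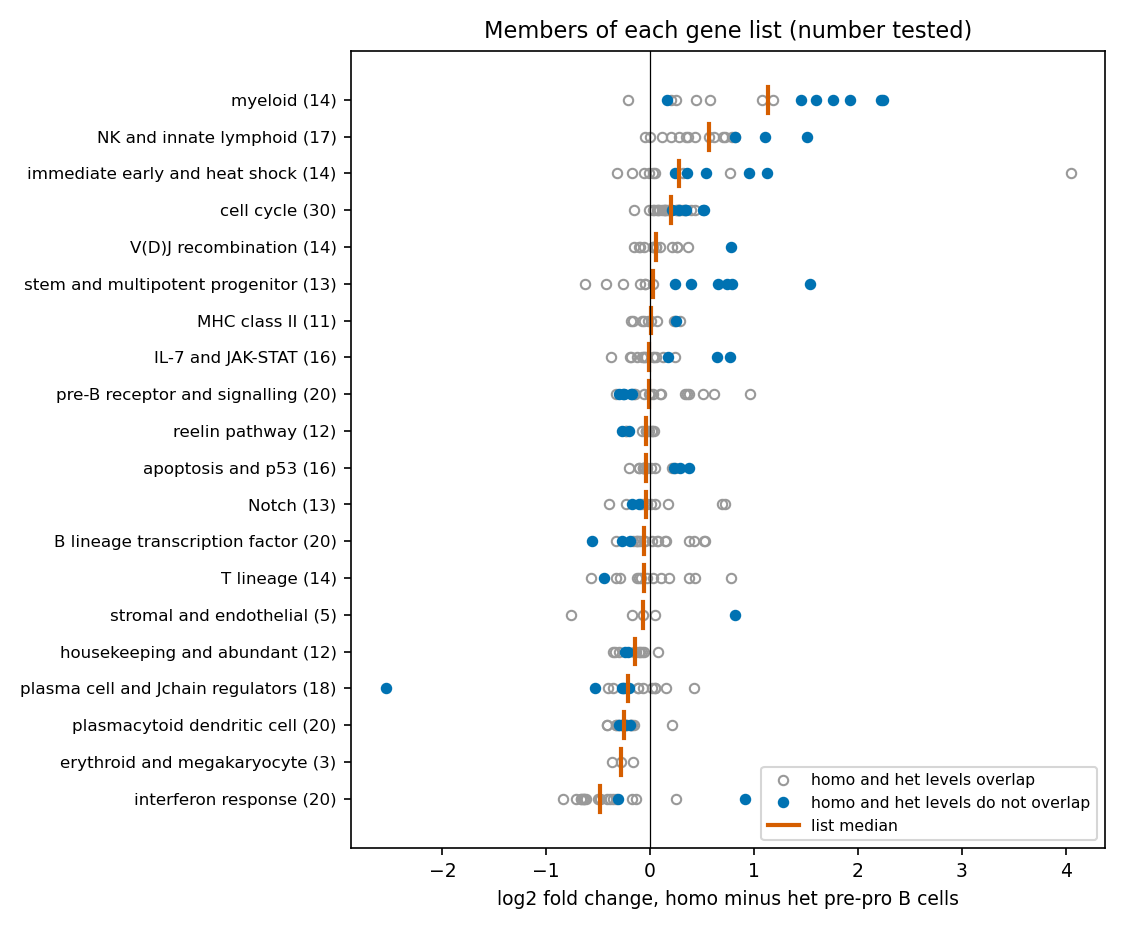
Log2 fold change of homo against het pre-pro B cells for the tested members of 20 gene lists, sorted by list median; filled points have homo and het levels that do not overlap. The myeloid list has the highest median (1.13) and the interferon response list the lowest (-0.49); no member of any list passed the test.

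The same genotype contrast was then read in pre-B cells, whose libraries the pre-pro B contrast does not use. At both stages, Y-linked counts were present in het replicate 2 and homo replicates 1 and 3 only. The labels do not say whether the stages came from the same mice, so the pre-B values may not be independent. The stage difference took all libraries as unpaired, and pairing across stages was not tested. There, 216 of 11411 tested genes passed (1.89%), 92 higher (0.806%) and 124 lower (1.09%). Jchain was at 7.11, 11.9 and 4.03 CPM in het and 1.42, 1.08 and 0.599 CPM in homo pre-B cells, from 46, 49 and 28 counts and 9, 7 and 1 counts. Homo lay below het in every library, with a log2 fold change of -2.66 (SE 0.61, n = 3 and 3; edgeR, adjusted p = 0.0631). Homo replicate 3 was the shallowest pre-B library, at 1888871 gene counts against 4265056 to 6757040 in the others. Its summed housekeeping level was 3044 CPM, against 1450 to 1926 CPM in the others. Without that library the Jchain log2 fold change was -2.54 (edgeR, adjusted p = 0.0607). The difference between the stages was -2.702 (SE 0.90; edgeR interaction, adjusted p = 0.224), so the Jchain changes were not shown to differ by stage.

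Reln was far more abundant in pre-B cells, at 688, 512 and 665 CPM in het and 420, 429 and 332 CPM in homo libraries, with WT at 383 to 480 CPM. Homo lay below het in every library there too, with a log2 fold change of -0.66 (SE 0.16, n = 3 and 3; edgeR, adjusted p = 0.0755). The stage difference passed, at -1.94 (SE 0.36; edgeR interaction on all 18 libraries, adjusted p = 0.00911), where 1.45% of 12440 tested genes passed, 0.86% in the positive and 0.595% in the negative direction. The homo against het difference of Reln was thus larger in pre-pro B than in pre-B cells. Of the 10 lower genes, Jchain and Reln included, 6 were tested in pre-B cells. Gapt (-1.74) and Sspn (-1.48) passed, both lower, where 1.09% of tested genes passed lower. Of the 10 higher genes, 6 were tested there. Ehd3 (2.36) and Serpina3f (1.56) passed, both higher, where 0.806% of tested genes passed higher. The other tested genes did not pass in either direction.

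Regions bound by Ikaros or Aiolos near the called genes were read from the authors' deposited peak lists, each from 1 library of cultured pre-B cells or thymocytes, and none from pre-pro B cells or heterozygotes. No region of any of the 8 lists lay within 50 kb of Reln. Near Jchain, the Ikaros list of homozygous mutant pre-B cells held a region at chr5:88537864-88538080 (mm10), 9.97 kb upstream of the gene, with an authors' fold enrichment of 3.94 and a -log10 q of 5.18. The Ikaros list of mutant thymocytes held a region at the same place, chr5:88537732-88538171, with a fold of 6.25 and a -log10 q of 11.4. Jchain was the nearest protein-coding gene to both. The WT pre-B and WT thymocyte Ikaros lists had no region there. The nearest region in the WT thymocyte list lay 26.11 kb upstream at chr5:88554009-88554360, beside Utp3, and the mutant thymocyte list had one there too, at chr5:88553841-88554695.

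These lists differ in length, so presence in one and absence from another shows no change: the mutant pre-B Ikaros list held 8609 regions and the WT list 3683, and the thymocyte lists held 8221 and 3572. An Ikaros region of the mutant pre-B list lay within 10 kb of 30.0% of tested genes, and of 4 of the 10 lower genes (Jchain, Adamtsl2, Cd72, Cpeb3) and 2 of the 9 matched higher genes (Gprc5c, Slc30a4). In the WT pre-B list the shares were 14.2% of tested genes, 2 of the 10 lower and 1 of the 9 higher genes.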

How the data were processed

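The authors deposited whole-number read counts per gene symbol for each of 18 RNA libraries; per the submitters' processing notes STAR 2.7.0, HISAT2 2.1.0, MACS2 2.1.1 and mm10 were used, and the counter and its strand setting are not given in the sources used here. The 8 deposited peak lists (Ikaros and Aiolos chromatin immunoprecipitation) give per region a fold enrichment ratio, -log10 p and q, and a score, which was not used. The 5 count entries that name no gene were dropped; reads assigned to no feature were 29.8% to 34.9% of all counted reads in the pre-pro B files.

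Counts of the 9 pre-pro B libraries were fitted with edgeR 4.0.16 (R 4.3.3): filterByExpr with a minimum count of 10, TMM, robust quasi-likelihood F test, contrast homo minus het, Benjamini-Hochberg over 12188 of 24459 genes, called at 0.05. WT libraries share the estimate of spread (biological coefficient of variation 8.13%). The SE is the log2 fold change over the root of F. Pre-B libraries were fitted alone and all 18 together for the stage difference. Counting intervals are exact and cover counting error only. The procedure was tested on simulated data. All pairs of libraries differed beyond sampling noise.

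The genes named are Jchain and Reln, every called gene, the 10 with the smallest p in each direction without overlap of homo and het levels (Xist and Y-linked genes left out), up to 4 of each list with the smallest p, Ikzf3 and Ikzf1; further list members and marker genes are named for their role, after their values were seen. Members and lists were chosen with earlier results of these data known, so lists are described by counts and medians and not tested. Gene positions and promoters are RefSeq's on GRCm38.p6, the assembly of mm10. Alternatives tried were DESeq2 1.42.0, limma 3.58.1 (voom after cyclic loess), RLE scaling, count filters, depth, Y-linked and replicate terms, and leaving out each library. The fits of libraries without Y-linked counts, and the alternatives for the pre-B contrast, were added after seeing the data.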

Additional observations from a re-analysis of the deposited data

Results flagged for a closer look

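In 8 of the named genes, the homo against het difference was not the same in pre-pro B as in pre-B cells by the interaction test on all 18 libraries (edgeR quasi-likelihood, adjusted over 12440 genes, of which 1.45% passed). Most named genes were chosen for a small p in the pre-pro B contrast, and the interaction uses the same libraries. The number of such genes is therefore not to be read against that share. Values are log2, the pre-pro B difference minus the pre-B difference.

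Reln, described above, gave -1.94 (adjusted p = 0.00911). For Pls1 the direction turned: het exceeded homo in pre-pro B cells, and homo exceeded het in pre-B cells, at 2.37, 2.93 and 2.39 CPM against 0.928, 1.46 and 0.720 CPM, and the stage difference was -3.28 (SE 0.42, adjusted p = 0.00084). Those pre-B levels rested on 4 to 19 counts. Cpeb3, at 10 counts or fewer in each het and homo pre-B library, gave -3.31 (adjusted p = 0.0103).

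Ehd3 was higher in homo cells at both stages and by more in pre-B cells, at 20.5, 35.3 and 21.5 CPM against 6.03, 4.88 and 4.32 CPM in het, with a stage difference of -1.57 (adjusted p = 0.0162). Gapt was lower at both stages and by more in pre-B cells, at 3.94, 4.31 and 5.99 CPM in homo against 17.5, 19.5 and 8.35 CPM in het, with a stage difference of 1.38 (adjusted p = 0.0353).

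Hoxa9 gave -2.40 (adjusted p = 0.0225), from 9, 33 and 6 counts in homo and 2, 2 and 4 counts in het pre-B cells. Eng, which encodes the TGF-beta coreceptor endoglin, gave -1.23 (adjusted p = 0.0478), with homo replicate 2 the high pre-B library at 20.5 CPM against 9.78 and 7.78 CPM in homo replicates 1 and 3. Fyn gave -0.70 (adjusted p = 0.0468), with homo above het in pre-B cells (160 to 174 against 116 to 124 CPM) and overlapping groups in pre-pro B cells.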

How the results depend on the processing

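The least stable value was the number of called genes, 2 in the pre-pro B comparison. It was 48 with DESeq2, 43 with no filter on low counts, 20 with the replicate block, 86 with the libraries without Y-linked counts (none of them Jchain or Reln), and 0 with library size as a covariate (1305 at an unadjusted p under 0.05), with Y-linked counts as a covariate (1095) and with limma-voom after cyclic loess (1441). Leaving out each library gave 0 to 223: het replicate 2 left out gave 223, homo replicate 1 gave 13, het replicate 3 gave 4, and the other het library, homo replicate 2 and homo replicate 3 each gave 0 (1258, 906 and 922 at an unadjusted p under 0.05). The cause was not tested.

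Jchain and Reln kept their direction in all 19 alternatives and their call in 12. With library size as a covariate Jchain was -5.16 and Reln -2.56 (adjusted p = 0.129 for both), with Y-linked counts as a covariate -5.22 and -2.69 (0.0541 for both), with limma-voom -5.31 and -2.63 (0.0922 and 0.0547), and in the libraries without Y-linked counts -5.19 and -2.89 (0.148 and 0.0603; 2 het against 1 homo library, the lone one assumed to vary like the others). Leaving out each library gave -5.45 to -5.13 and -2.81 to -2.46.

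In pre-B cells Jchain passed with DESeq2 (-2.75), no filter (-2.66), library size (-2.72) and Y-linked counts (-2.87) as covariates, and ranged from -2.98 to -2.24 on leaving out each library, passing without het replicate 3; Reln passed with DESeq2 (-0.64) and library size (-0.56), and ranged from -0.78 to -0.55, passing without het replicate 2. The Jchain stage difference passed with DESeq2 (-2.63, adjusted p = 0.00467; range over alternatives 0.00467 to 0.51), and that of Reln passed in all 25 alternatives. Genes with a stage difference numbered 181, and 272 with library size as a covariate, 96 with the replicate block and 105 to 244 on leaving out each library.

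No pairing by replicate number was seen: deviations of same-numbered het and homo libraries correlated at 0.095, -0.245 and -0.111. Those of differently numbered het and homo libraries correlated at -0.243 to 0.315. With 3 libraries in each group, these values cannot exclude pairing. No named gene turned its direction, but the medians of 11 of the 20 lists changed sign under at least 1 alternative (the erythroid median of -0.28 reached 0.10 and the T lineage median of -0.06 reached 0.23), and 9 kept theirs. Of the medians of 20 lists under each alternative, 357 moved by less than the spread between replicates and 23 by more. Of the other named genes that were followed, 111 values newly passed and none of the rest changed side. Reln, Cpeb3, Sspn, Miat and Tnfrsf17 rest on few counts, so their folds are among the least precise.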

Other observations

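Further gene groups gave no called gene with all libraries. Over all tested genes, 9.55% lay higher and 7.67% lower with no overlap between homo and het, beside which the counts here are to be read. Of 14 V(D)J recombination genes, 1 lay higher with no overlap, Poll, a repair polymerase gene, at 2.95 to 3.31 CPM in het and 3.56 to 7.56 CPM in homo cells, and the median was 0.06. Rag1, which encodes part of the recombinase, overlapped at 114, 104 and 65.7 CPM in het and 99.8, 112 and 148 CPM in homo cells. Of 16 genes of the IL-7 and JAK-STAT pathway, 3 lay higher with no overlap, and the median was -0.01. These were Socs3, a feedback inhibitor of cytokine signalling (log2 0.64), the kinase gene Jak3 (0.17) and Myc (0.77), and homo replicate 3 was the highest library for all 3. Without het replicate 2, 1 gene each of the IL-7, apoptosis and immediate early lists passed, higher. MHC class II genes had a median of 0.01 over 11, Notch pathway genes -0.04 over 13 with Notch3 (-0.17) and Adam10 (-0.11) lower with no overlap, and apoptosis and p53 genes -0.04 over 16 with Sesn2, Bcl2l1 and Bbc3 higher with no overlap (0.23 to 0.37).

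Homo replicate 3 stood apart for stress and immediate early genes. Hspa1b, a heat shock protein gene, was at 64.6 CPM there, 0.756 and 0.567 CPM in the other homo libraries and 1.06 to 1.56 CPM in het cells. Nr4a1, an immediate early nuclear receptor, was at 45.1 CPM there and at 11.7 to 19.6 CPM in the other 5 libraries. The 14 tested genes of that list had a median of 0.28, and of 0.12 without homo replicate 3. None passed the test.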
